A study of Homo sapiens with 16 samples.

Results

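The genes described here are the G1 cyclins CCND1, CCND2, CCND3, CCNE1 and CCNE2, the kinases CDK2, CDK4 and CDK6, the retinoblastoma gene RB1 and the transcription factor gene E2F1. They were taken by symbol from the array's annotation table, and are 10 of the 8225 genes that the table names from probe sets with a single symbol. A probe set is a group of short oligonucleotides on the array that together read a transcript, and some probe sets can match more than 1. The 10 genes had 23 probe sets, of which 19, covering all 10 genes, passed the filter on low values and were tested. RNA came from U937, a human monocytic leukaemia line, in which a tetracycline-controlled promoter drove AML1-ETO, the fusion protein of the t(8;21) translocation. All 16 samples, controls included, carried this construct and were grown in RPMI medium with fetal calf serum. The control groups were of 0, 24, 48 and 72 h, and induction had lasted 12, 24, 48 or 72 h in the induced groups, with 2 Affymetrix U95Av2 arrays for each of these 8 groups. Control cells at 12 h, of which the labels also speak, were not analysed here. A single cell line gave all the samples, and the labels do not say whether it was a single clone or whether replicates were separate cultures. Each p-value is thus based on how far these arrays spread, and that spread may be technical.

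The D-type cyclins are made in response to growth signals and bind CDK4 and CDK6. These complexes begin the phosphorylation of the RB1 protein, which otherwise holds E2F factors and keeps their target genes silent. Cyclin E with CDK2 completes that phosphorylation as the cell enters S phase, and the CDK inhibitors, such as the p21 protein of CDKN1A and the p27 protein of CDKN1B, hold these kinases back.

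Values are linear array intensities scaled by the authors, and 25.8% of all values were below 0, as differences between perfect match and mismatch probes can be. Array medians lay between 220.3 and 337.5. RUNX1T1 supplies the ETO part of the fusion, and its 1 tested probe set checked the labels. It read at most 91.4 in the 8 control arrays and -116 and 86.1 in induced cells at 12 h. The induced arrays read 1592 and -47.5 at 24 h, 8649.6 and 3974 at 48 h, and 10603 and 8355 at 72 h. On this probe set, which passed the filter through induced arrays, the level was thus above the controls in 1 of 2 induced arrays at 24 h and in all 4 at 48 and 72 h. The other 3 RUNX1T1 probe sets were not tested and averaged 51.7, 38.7 and -37.0 in induced cells at 72 h, under the floor of 135.61. Of 18 markers of U937 cells on the array, 9 were above the floor on all 16 arrays and 2, CSF1R and ITGAM, were under it on all. Their summed level was 45315 to 55939 in controls and 24317 to 30407 in induced cells at 48 and 72 h. The summed level of 13 lymphoid markers was 4791 to 7117 in controls and 4987 to 6343 in the same induced arrays. CD3G, CD79B and PAX5 were under the floor on all 16 arrays, and CD3E, CD7 and CD22 were above it on all. Sums for erythroid and megakaryocyte markers (6898 to 10967 in controls, 7019 to 10388 in those induced arrays) and for epithelial and fibroblast markers (5268 to 7906, and 5440 to 8901) also overlapped. The part of the U937 marker difference in the results below was not tested.

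RNA of CCND1, CCND2, CDK4 and CDK2 fell in induced cells and RNA of RB1 rose, with all of these differences appearing at 48 or 72 h. The fall of CCND1 was called on 1 of its 2 tested probe sets, and the rise of RB1 on 1 of its 4. CCNE2 was higher on average by a narrow margin, and CDK6 was higher at 72 h on 1 of its 2 probe sets. CCND3, CCNE1 and E2F1 passed no test between induced and control cells. Each comparison was tested with limma. Calls were made at an adjusted p under 0.05, by the Benjamini-Hochberg method over all 7824 tested probe sets. In bulk RNA such as this, fewer cells that express a gene and less RNA per cell cannot be told apart. At 24 h none of the 19 probe sets was called, none had an unadjusted p under 0.05, and 0% of all tested probe sets were called. At 48 h 4 of 19 were called (21.1%), 1 higher and 3 lower, beside 19.2% of all tested probe sets (10.5% higher and 8.68% lower). At 72 h 7 of 19 were called (36.8%), 2 higher and 5 lower, beside 30% of all (16.1% higher and 13.9% lower). The average of the 3 same-time differences, with 6 arrays on each side, called 7 of 19, 2 higher and 5 lower, beside 31.9% of all. The share of these genes called was therefore near that of the array as a whole. Of all tested probe sets, 18.5% were called higher and 13.4% lower in the average effect. Median centring of each array turned the whole-array split towards lower calls, from 58.1% higher among the calls to 44.8%, and the split of the 19 probe sets to 1 higher and 6 lower. It moved the median average effect of all probe sets from 0.10 to -0.03 on the log2 scale.

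**Figure D1:**
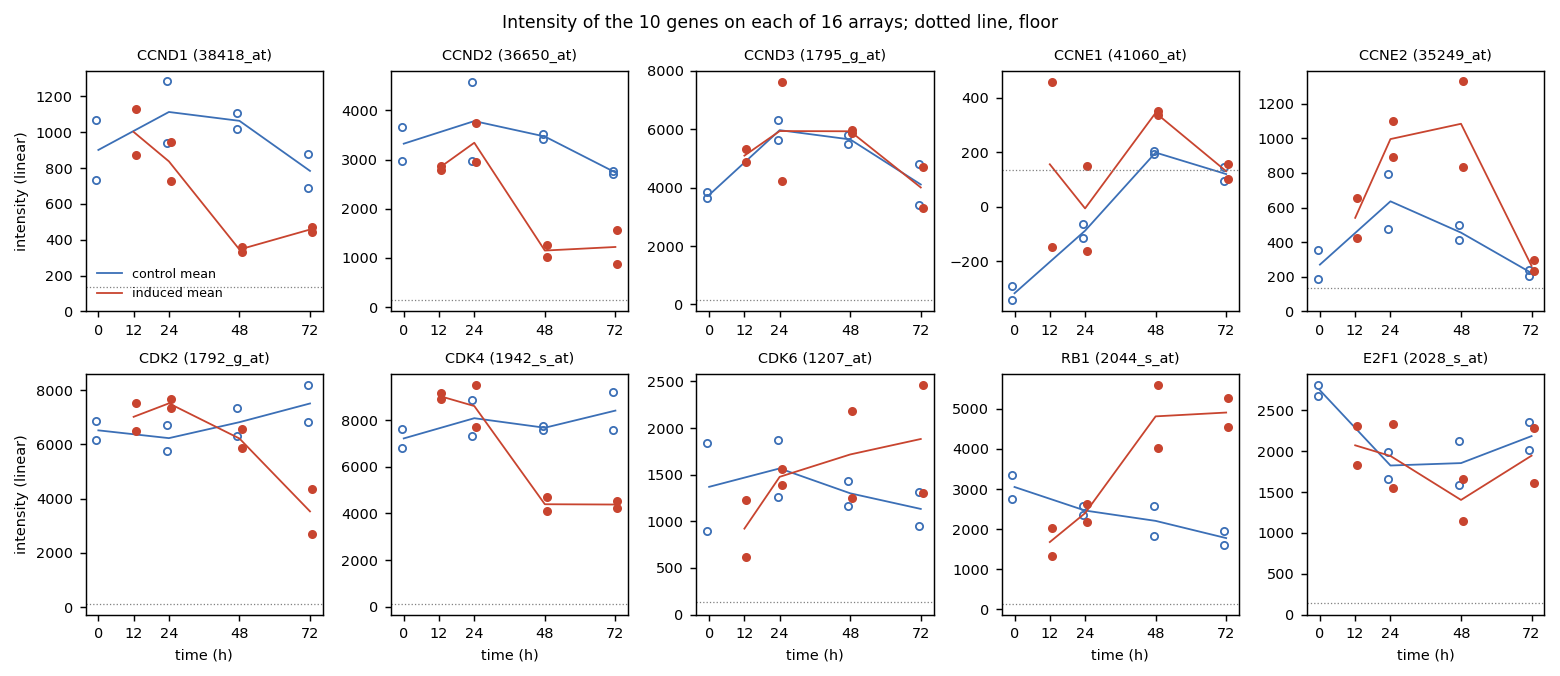
Array intensity (linear scale) by hour for the brightest tested probe set of each of the 10 genes, with 1 point per array, 2 arrays per group, lines through the group means, control cells in blue and induced cells in red, and the floor as a dotted line. CCND1 (38418_at), CCND2 (36650_at) and CDK4 (1942_s_at) lay below every control array in induced cells at 48 and 72 h, and RB1 (2044_s_at) lay above every control array there.

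Cyclin D1 (CCND1, 38418_at) was lower in induced cells at 48 h. It read 1071 and 731 in control arrays at 0 h, 939.8 and 1286 at 24 h, 1020.2 and 1107 at 48 h, and 879 and 689 at 72 h. Induced cells read 875 and 1129 at 12 h, 948 and 727 at 24 h, 360.2 and 330.1 at 48 h, and 469.9 and 444 at 72 h. The 4 induced arrays of 48 and 72 h were below all 8 control arrays, while the induced arrays of 12 and 24 h lay within the control range. The difference between fitted log2 means at 48 h was -1.62 (SE 0.32), or 3.08-fold lower, with an adjusted p of 0.00348 in limma. At 72 h it was -0.77 (95% interval -1.47 to -0.07) and did not pass the threshold (limma adjusted p = 0.0918). The call at 72 h was made after quantile normalization (limma adjusted p = 0.0255) and after median centring (0.031).

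Another CCND1 probe set, 2017_s_at, read -81.8 to 753 over the 16 arrays and correlated with 38418_at at r = 0.40 over them. Its suffix, s_at, marks probes that can match more than 1 transcript. The same suffix is carried by 1942_s_at of CDK4, 2044_s_at and 1905_s_at of RB1, 2028_s_at of E2F1 and 2021_s_at of CCNE1, described below. At 48 h 2017_s_at read 502 and 594 in controls and 294 and 297 in induced cells. This log2 difference of -0.89 (SE 0.47) did not pass the threshold (limma adjusted p = 0.227). The direction at 48 h was thus the same in both tested CCND1 probe sets, without overlap of the groups in either. The third, 2020_at, was under the floor on 15 of 16 arrays and was not tested.

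Cyclin D2 (CCND2) was lower in induced cells at 48 and 72 h. Its probe set 36650_at read 3672 and 2974 in controls at 0 h, 2979 and 4586 at 24 h, 3427 and 3511 at 48 h, and 2705 and 2769.9 at 72 h. In induced cells it read 2786 and 2868 at 12 h, 2941 and 3743 at 24 h, 1271 and 1028 at 48 h, and 1563 and 881 at 72 h. The lowest control array stood at 2705 and the highest induced array of 48 and 72 h at 1563, so the groups were well apart. CCND2 was 3.03-fold lower at 48 h (log2 -1.60, SE 0.27, limma adjusted p = 0.00112) and 2.33-fold lower at 72 h (log2 -1.22, SE 0.27, limma adjusted p = 0.0037). Without induced replicate 2 at 72 h, the array that read 881, the difference at 72 h was -0.81 and no longer passed (limma adjusted p = 0.0521).

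The other CCND2 probe set, 1983_at, followed 36650_at closely (r = 0.84 over 16 arrays). In controls it read 1287 and 1680.2 at 0 h, 1774 and 2246 at 24 h, 1681 and 1478 at 48 h, and 1448 and 1409 at 72 h. In induced cells it read 1225 and 1564 at 12 h, 1533 and 1478 at 24 h, 1009.8 and 993 at 48 h, and 684 and 771 at 72 h. Here too the 4 induced arrays of 48 and 72 h were below all 8 control arrays, and the lowest values were those at 72 h. The difference passed at 72 h (1.97-fold lower, log2 -0.98, SE 0.23, limma adjusted p = 0.00592) and not at 48 h (log2 -0.65, SE 0.23, limma adjusted p = 0.0675). Both probe sets passed in the average effect, at log2 -0.99 and -0.68 (limma adjusted p = 0.000291 and 0.00157).

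Cyclin D3 (CCND3) was the D cyclin for which no comparison passed. Its probe set 1794_at read 2949 to 4582 in the 8 controls and 2752 to 5647 in the 8 induced arrays, and 1795_g_at read 3419.7 to 6321 and 3305 to 7634. The average log2 effect was -0.25 (95% interval -0.56 to 0.07, limma adjusted p = 0.228) for 1794_at and -0.01 (95% interval -0.32 to 0.30, limma adjusted p = 0.959) for 1795_g_at. For the average over times, these intervals reach a fall of 0.56 at most on the log2 scale. The same interval for CCND2 36650_at ran from -1.33 to -0.66. That for CCND2 1983_at ran from -0.97 to -0.39 and overlapped the interval of CCND3 1794_at. At 48 h the CCND3 difference was -0.46 on 1794_at (95% interval -1.01 to 0.08) and 0.07 on 1795_g_at (95% interval -0.47 to 0.61). On 1794_at the induced arrays of 48 and of 72 h were below both same-time controls, whereas on 1795_g_at those of 48 h were above them. The difference between the D cyclins was not tested. The pair of induced arrays at 24 h stood far apart in both probe sets, at 2842 and 5647 in 1794_at and at 4243 and 7634 in 1795_g_at. Without the higher of these arrays, induced replicate 2, the average effect of 1794_at was -0.41 and passed (limma adjusted p = 0.0146).

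CDK4, the kinase partner of the D cyclins, was lower at 48 and 72 h. Its single probe set, 1942_s_at, read 7629.7 and 6802 in controls at 0 h, 8845 and 7321 at 24 h, 7583 and 7764 at 48 h, and 7591 and 9226 at 72 h. Induced cells read 9169 and 8913 at 12 h, 7692 and 9516 at 24 h, 4084 and 4706 at 48 h, and 4244 and 4520.1 at 72 h. The highest induced array of 48 and 72 h, at 4706, was below the lowest control, at 6802, although replicates were as far apart as 7692 and 9516. CDK4 was 1.75-fold lower at 48 h (log2 -0.81, SE 0.16, limma adjusted p = 0.00299) and 1.91-fold lower at 72 h (log2 -0.93, SE 0.16, limma adjusted p = 0.000529). At 24 h, when the fusion transcript was above the controls in 1 array, the CDK4 difference was 0.09 (95% interval -0.25 to 0.43).

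The CDK4 promoter is shown because this gene was among the most clearly lowered and its start region carries repeated E-boxes, the CACGTG motif bound by MYC and related factors, whose RNA is described further on. The 250 bases before the RefSeq start of CDK4 (GRCh38.p14, chr12:57752311-57752560, minus strand, 5′ to 3′) read as follows, with the CACGTG matches in capitals.
CDK4: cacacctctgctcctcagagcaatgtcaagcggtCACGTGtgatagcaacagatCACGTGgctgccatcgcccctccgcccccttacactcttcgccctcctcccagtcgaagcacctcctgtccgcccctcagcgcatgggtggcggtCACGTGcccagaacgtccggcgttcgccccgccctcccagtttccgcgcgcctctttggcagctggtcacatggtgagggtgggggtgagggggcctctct
The matches begin at positions -216, -196 and -101 from the start. CACGTG reads the same on both strands and was found in 7.23% of the 34943 RefSeq promoters of 300 bases (250 before and 50 after the start), and 33 of them, or 0.0944%, held at least 3. CDK6, for which no fall was called, also held 1 CACGTG, at position 31 after its start. The motif was chosen after the sequences had been seen, and the cutoff of 3 is the count of CDK4 itself. The presence of the motif is a description only, and a link between MYC and CDK4 was not tested. The same window of CDK4 held 3 matches of GGGCGG, the GC box of the SP1 type, which 44.9% of all promoters hold at least once. TGANTCA, an AP-1 motif, was in 7.72% of all promoters and in the RB1 entry at -210. TGTGGT, a core motif of RUNX factors on either strand, was in 13.1% of all promoters. It was in none of the 9 entries found for 6 of the 10 genes (CCND3, CCNE1, CDK4, CDK6, RB1 and E2F1). CCND1, CCND2 and CDK2, which were called lower, and CCNE2 were not among these entries, so their promoters were not searched.

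CDK6, the other kinase of the D cyclins, gave readings that differed between its probe sets. On 1207_at it read 901 to 1874 in controls and 619 to 2466 in induced cells, with an average log2 effect of 0.32 (95% interval -0.22 to 0.87, limma adjusted p = 0.367). On 41545_at it read 478 and -219 in controls at 0 h, 1756 and 609.9 at 24 h, 23.8 and -194 at 48 h, and 114 and 44.7 at 72 h. The induced arrays read 166 and 479 at 12 h, 592 and 316 at 24 h, 261 and -61.8 at 48 h, and 793 and 827 at 72 h. Both control arrays of 72 h were under the floor and both induced arrays were above it, but 1 control array of 24 h, at 1756, was above the induced arrays of 72 h. At 72 h 41545_at was at least 5.97-fold higher (log2 2.58, SE 0.69, limma adjusted p = 0.012), a call that was lost when any 1 of the 4 arrays was left out (limma adjusted p = 0.0535 to 0.0631). The 2 probe sets, which share a listed accession, correlated at r = 0.24 over the 16 arrays.

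**Figure D2:**
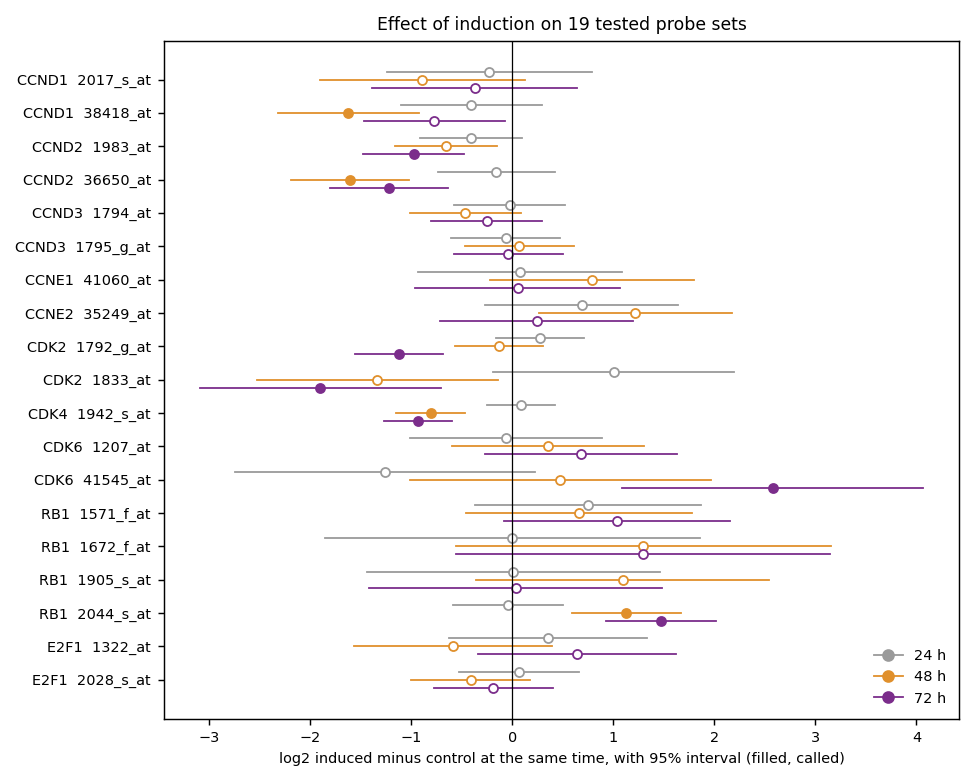
Induced minus control log2 difference at 24, 48 and 72 h for the 19 tested probe sets, with 95% intervals from limma and 2 arrays on each side; filled points passed the adjusted threshold. All 19 points at 24 h are open, and the passed differences at 48 and 72 h lie below 0 for CCND1, CCND2, CDK2 and CDK4 and above 0 for RB1 and CDK6.

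Cyclin E1 (CCNE1) was near the floor throughout. Its tested probe set 41060_at ranged from -343 to 203 in controls and from -162 to 459 in induced cells. It passed the filter only through induced arrays, the only ones above the median of all values (292.74), which favours higher readings there. At 48 h it read 203 and 195 in controls and 351 and 338 in induced cells, without overlap, but the log2 difference of 0.79 (SE 0.47) did not pass (limma adjusted p = 0.286). The other probe set, 2021_s_at, ranged from 82.3 to 266 and was not tested.

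Cyclin E2 (CCNE2, 35249_at) was higher in induced cells on average. It read 352 and 188 in controls at 0 h, 475 and 797 at 24 h, 497 and 413 at 48 h, and 202 and 241 at 72 h. Induced cells read 425 and 655 at 12 h, 892 and 1099 at 24 h, 834 and 1334 at 48 h, and 294 and 231 at 72 h. In both kinds of cell the level was higher at 24 and 48 h than at 72 h, and at 24 and 48 h each induced array was above both same-time controls. The average effect was 1.64-fold (log2 0.72, SE 0.26, limma adjusted p = 0.0477), just inside the threshold. No single time passed: the log2 difference was 0.69 (SE 0.44, limma adjusted p = 0.991) at 24 h, 1.22 (SE 0.44, limma adjusted p = 0.0739) at 48 h and 0.24 (SE 0.44, limma adjusted p = 0.72) at 72 h. The average call held in 9 of 24 alternative settings and was lost in 10 of the 12 fits that left out 1 array.

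CDK2, the kinase that cyclin E binds, was lower at 72 h. Its brighter probe set, 1792_g_at, read 6875 and 6162 in controls at 0 h, 5765 and 6698 at 24 h, 6302 and 7338 at 48 h, and 8198 and 6819 at 72 h. In induced cells it read 7539.5 and 6494 at 12 h, 7685 and 7341 at 24 h, 5869 and 6567 at 48 h, and 2701 and 4365 at 72 h. Only the 72 h induced arrays lay below the control range. The difference there was 2.18-fold (log2 -1.12, SE 0.20, limma adjusted p = 0.000901), and at 48 h it was -0.13 (95% interval -0.57 to 0.31). The average effect of -0.33 (limma adjusted p = 0.0477) held in 5 of 24 alternative settings.

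The dimmer CDK2 probe set, 1833_at, shares a listed accession with 1792_g_at and correlated with it at r = 0.63 over 16 arrays. It read 409 and 626 in controls and -196 and -86.5 in induced cells at 72 h, at least 3.73-fold lower (log2 -1.90, SE 0.55, limma adjusted p = 0.0189). At 48 h it read 356 and 329.8 in controls and 20.8 and 130.4 in induced cells, at least 2.53-fold lower, which did not pass (limma adjusted p = 0.116). All 4 of these induced arrays were under the floor. However, 1 control array of 0 h was lower still, at -274, while the other read 564. At 24 h the induced arrays, at 429 and 696, were above the controls, at 249 and 298. The 72 h call was lost in 3 of the 4 fits that left out 1 array, with a highest adjusted p of 0.116 in limma.

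RB1, whose protein restrains E2F, was higher in induced cells at 48 and 72 h on its brightest probe set. On 2044_s_at controls read 3359 and 2742 at 0 h, 2352 and 2572 at 24 h, 2579 and 1827 at 48 h, and 1589 and 1957 at 72 h. Induced cells read 1327 and 2020.3 at 12 h, 2619 and 2172 at 24 h, 5606 and 4026 at 48 h, and 4544 and 5279 at 72 h. All 4 induced arrays of 48 and 72 h were above all 8 controls, and the 0 h controls were the highest of the controls. RB1 was 2.19-fold higher at 48 h (log2 1.13, SE 0.25, limma adjusted p = 0.0068) and 2.78-fold higher at 72 h (log2 1.47, SE 0.25, limma adjusted p = 0.000596). The 48 h call was lost without control replicate 2 at 48 h (limma adjusted p = 0.0814) or without induced replicate 1 at 48 h (0.0766). When all comparisons were made with control cells of 0 h, the average effect of RB1 was 0.33 rather than 0.85 and did not pass (limma adjusted p = 0.311).

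The other RB1 probe sets gave no call. On 1571_f_at controls read 671 to 1673, and induced cells read 2874 and 724 at 48 h and 3614 and 2017 at 72 h. The 2 induced arrays of 48 h lay on opposite sides of the control median, and the average log2 effect was 0.82 (SE 0.30, limma adjusted p = 0.0528). Without induced replicate 2 at 48 h it was 1.15 and passed (limma adjusted p = 0.00223). The probe set 1672_f_at was under the floor on 11 of 16 arrays. It was highest in the same pair of arrays, replicate 1 of induced cells at 48 h (818) and at 72 h (1283). Only these 2 arrays were above the median of all values (292.74), so it passed the filter through induced cells alone. On 1905_s_at the range was -56.6 to 678, and the average log2 effect was 0.38 (95% interval -0.46 to 1.22, limma adjusted p = 0.496). The 4 tested RB1 probe sets correlated with one another at r = 0.28 to 0.83 over the 16 arrays. The remaining 2, 1570_f_at and 1900_at, read at most 70.4 and 349 and were not tested.

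**Figure D3:**
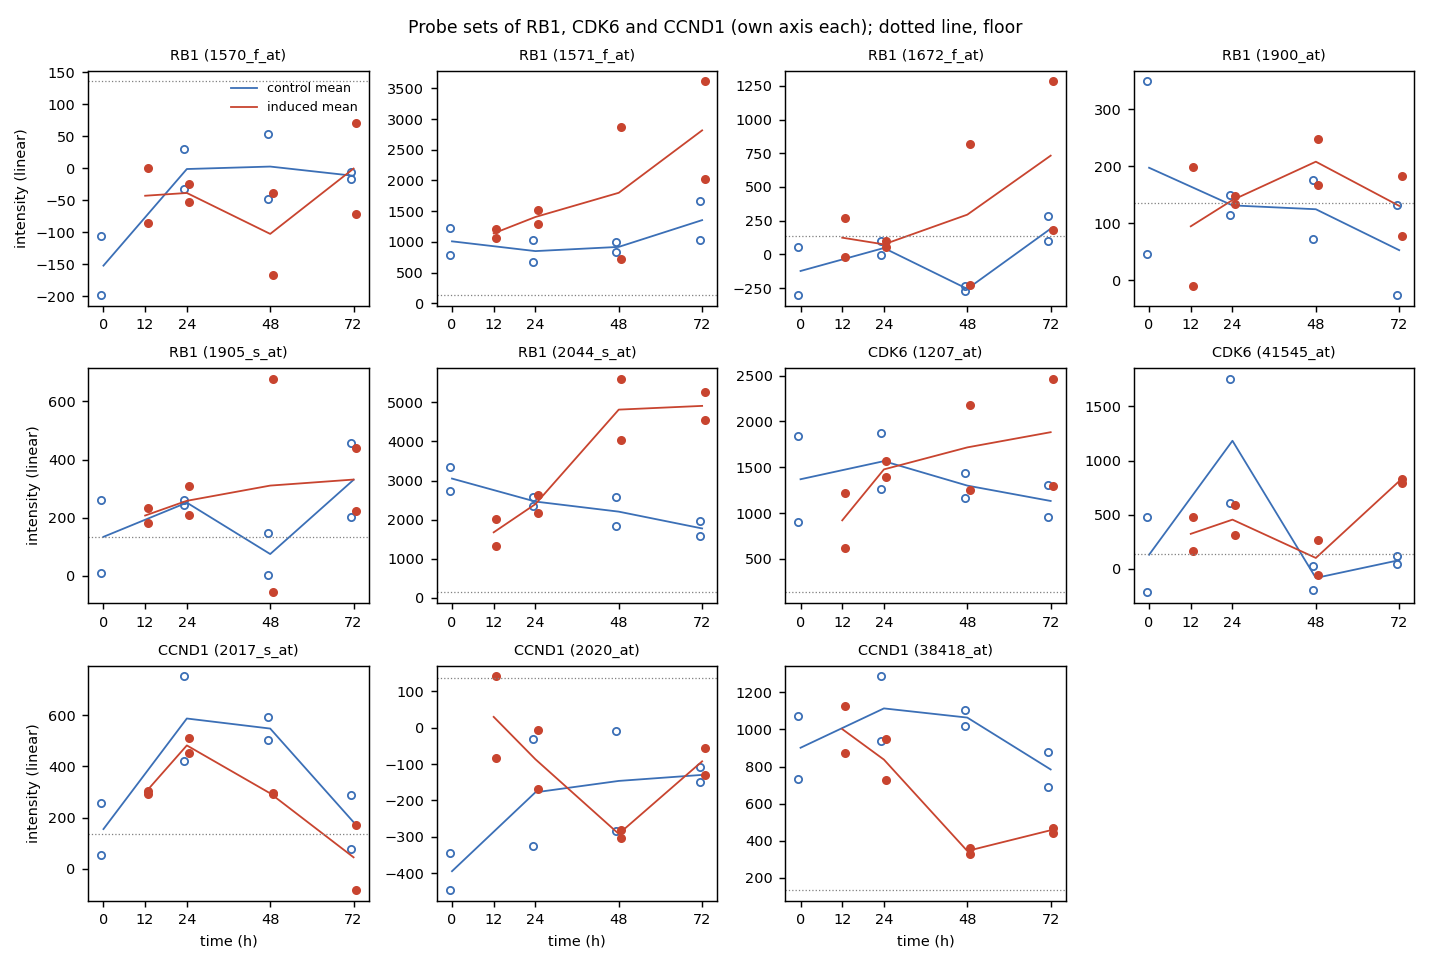
Array intensity by hour for every probe set of RB1 (6), CDK6 (2) and CCND1 (3), with 1 point per array, control cells in blue, induced cells in red, lines through the group means and the floor of 135.61 as a dotted line. Probe sets of 1 gene differ in brightness and in pattern. Of the RB1 probe sets only 2044_s_at separates induced from control arrays at both 48 and 72 h. The dimmer 1571_f_at separates them at 72 h and not at 48 h.

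E2F1, the factor that RB1 holds back, passed no test in either probe set. On 2028_s_at, the brighter, controls ranged from 1587 to 2815 and induced cells from 1143 to 2334, and the average log2 effect was -0.18 (95% interval -0.52 to 0.16, limma adjusted p = 0.43). On 1322_at the ranges were 479 to 1373 and 606 to 1389, and the effect was 0.14 (95% interval -0.43 to 0.70, limma adjusted p = 0.728). The probe sets were not alike in pattern (r = -0.14 over 16 arrays), and replicates on 1322_at differed by as much as 479 against 1277 at 0 h. At 48 h both read lower, by log2 -0.59 on 1322_at (95% interval -1.56 to 0.39), where the groups did not overlap, and by -0.41 on 2028_s_at (SE 0.27). At 72 h the log2 difference was 0.64 on 1322_at and -0.19 on 2028_s_at, so their directions were opposite. For the average over times, falls of more than 0.52 on the log2 scale lay outside the 95% interval of both probe sets, but the intervals at single times were wider.

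E2F1 is itself a known target of E2F factors, and its promoter is shown for that reason. The 250 bases before its RefSeq start (GRCh38.p14, chr20:33686386-33686635, minus strand, 5′ to 3′) have matches to an E2F motif in capitals.
E2F1: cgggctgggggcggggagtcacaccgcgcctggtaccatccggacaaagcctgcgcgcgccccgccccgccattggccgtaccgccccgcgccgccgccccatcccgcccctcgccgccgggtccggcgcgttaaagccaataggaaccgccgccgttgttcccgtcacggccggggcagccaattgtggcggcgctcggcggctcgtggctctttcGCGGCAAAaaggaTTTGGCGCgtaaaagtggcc
The motif was searched as TTTCCCGC, TTTGGCGC, TTTCGCGC and TTTGCCGC on both strands. The match at -33 is GCGGCAAA, the reverse complement of TTTGCCGC, and that at -20 is TTTGGCGC. At least 1 match was present in 3.3% of the 34943 promoters. At least 2, the count of E2F1 itself, were present in 50 of them (0.143%). E2F1 was the 1 entry of the 9 with these letters. GGGCGG matched at 6 places in the full window of 300 bases, and no CACGTG was present.

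The effect of induction differed between times for 3 of the 19 probe sets (15.8%) by limma's F test over the same-time differences at 24, 48 and 72 h, beside 10.9% of all tested probe sets. These were CDK4 (adjusted p = 0.0142), CDK2 1792_g_at (0.0142) and RB1 2044_s_at (0.0274). From 24 to 72 h the log2 effect of CDK4 moved by -1.02 (SE 0.22), that of CDK2 by -1.40 (SE 0.29) and that of RB1 by 1.52 (SE 0.36). CDK4 had already moved by -0.90 between 24 and 48 h (SE 0.22, limma adjusted p = 0.0354). CDK2 1792_g_at moved by -0.40 over that interval (SE 0.29, limma adjusted p = 0.533). CCND2 36650_at did not pass the F test (adjusted p = 0.0546), though its move of -1.45 from 24 to 48 h passed on its own (SE 0.38, limma adjusted p = 0.0473). CDK6 41545_at and CDK2 1833_at likewise missed the F test (adjusted p = 0.0536 and 0.0535). Their moves from 24 to 72 h, of 3.84 and -2.90, passed on their own (limma adjusted p = 0.0182 and 0.0244). Part of each move lay in an uncalled 24 h effect of opposite sign, -1.26 for CDK6 41545_at and 1.00 for CDK2 1833_at. CCND1 38418_at passed neither (F test adjusted p = 0.218).

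Against all 8 control arrays, the 4 induced arrays of 48 and 72 h were lower without overlap on 4 of the 19 probe sets (CCND1 38418_at, both of CCND2, and CDK4), beside 11.1% of all tested probe sets. They were higher on 1, RB1 2044_s_at, beside 14.4% of all. Induced cells of 12 h were set against controls of 0 h, and 0 of the 19 probe sets was called in limma, with 2 at an unadjusted p under 0.05, beside 3.28% of all called. These 2 were RB1 2044_s_at (log2 -0.89, SE 0.25, limma adjusted p = 0.0675) and CCNE2 (log2 1.04, SE 0.44, limma adjusted p = 0.207). Time and induction cannot be told apart in that comparison. Among controls alone, no member was called at 24, 48 or 72 h against 0 h in limma (5, 2 and 1 at an unadjusted p under 0.05), beside 0.498%, 0.0128% and 0.0383% of all. RB1 2044_s_at in controls of 72 h was the 1 of these at 72 h, at log2 -0.78 against 0 h (SE 0.25, limma adjusted p = 0.569).

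The CDK inhibitors, which block the kinases described above, were mostly higher in induced cells. Of 8 listed genes 6 were tested, and 4 rose and none fell in the average effect, beside 18.5% higher and 13.4% lower over all tested probe sets, with a median log2 effect of 0.75 beside 0.10 over all tested genes. CDKN1A (p21) read at most 50.1 in the 8 controls and in the induced arrays of 12 and 24 h, and 1584 and 2132 at 48 h and 3083 and 4050 at 72 h after induction. It was at least 13.6-fold higher at 48 h and at least 26.1-fold higher at 72 h (limma adjusted p = 1.52e-05 and 7.35e-07). CDKN1A, 1 of the 4 that rose, passed the filter only through the induced arrays of 48 and 72 h, which favoured that result. CDKN1B (p27) read 641 to 1181 in controls, 2950 and 2472 in induced cells at 48 h and 5040.1 and 3942 at 72 h, which was 3.53-fold and 4.36-fold higher (limma adjusted p = 0.000326 and 4.26e-05). The same 4 induced arrays held the falls of CDK4 at both times and of CDK2 at 72 h. CDKN2D, an inhibitor of CDK4 and CDK6, was 3.47-fold higher at 48 h (limma adjusted p = 0.0134), with a log2 difference of -0.03 at 72 h. CDKN2A rose 2.50-fold at 72 h (limma adjusted p = 0.00469). CDKN3, listed here but known as a phosphatase of the kinases, fell 3.16-fold at 72 h (limma adjusted p = 0.00154).

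Of 26 listed partners and regulators of the G1 to S step, 24 were tested. In the average effect 2 rose and 4 fell, beside 18.5% higher and 13.4% lower over all tested probe sets, with a median log2 effect of -0.18 beside 0.10 over all genes. At 72 h 2 rose and 8 fell, beside 16.1% higher and 13.9% lower, with a median of -0.50 beside 0.19. The 6 called in 24 genes for the average effect were thus no larger a share than over the array. At 72 h the 8 that fell were a larger share than over the array, and the 2 that rose a smaller one. After median centring none rose and 8 fell in the average effect. Cyclin A1 (CCNA1), which binds CDK2, read 2296 to 3012 in controls and 384 to 687 in induced cells at 48 and 72 h, 4.77-fold lower at 48 h (log2 -2.25) and 6.33-fold lower at 72 h (log2 -2.66). The S-phase cyclin CCNA2 read 6000.2 to 9112 in controls, 6764 and 6280.0 in induced cells at 48 h, and 2800.5 and 2312 at 72 h. It fell 2.95-fold at 72 h (limma adjusted p = 7.11e-05), with a log2 difference of -0.26 at 48 h that did not pass. CKS1B and CKS2, whose small proteins bind the kinases, fell 2.57-fold and 2.81-fold at 72 h, and CDK1 fell 1.83-fold. The phosphatase gene CDC25A fell 1.45-fold in the average effect (limma adjusted p = 0.0206) and E2F4 1.42-fold (0.0244). SKP1, part of a ubiquitin ligase, rose 1.34-fold in the average effect and 1.78-fold at 72 h (limma adjusted p = 0.0216 and 0.0109), and CDK7 rose 1.58-fold in the average effect (0.0442). CDC25B rose 1.75-fold at 48 h (limma adjusted p = 0.0461) and CDC37 1.28-fold at 72 h (0.0405). The RB1 relatives RBL1 and RBL2 and the E2F partner TFDP1 did not pass in the average effect (log2 0.16, 0.30 and -0.20).

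Of 40 listed E2F target genes, which act in DNA replication and S phase, 36 were tested. At 24 h limma called none (4 at an unadjusted p under 0.05, 3 higher and 1 lower), with a median log2 effect of 0.03 beside 0.04 over all genes. At 48 h 14 fell and none rose, beside 8.68% lower over all tested probe sets, with a median of -0.59 beside 0.10. At 72 h 32 fell and none rose, beside 13.9% lower, with a median of -1.77 beside 0.19. The replication helicase gene MCM7 read 7529 to 11010 in controls, 4405 and 4913 in induced cells at 48 h and 1601 and 1587 at 72 h, 2.06-fold and 5.05-fold lower. The licensing factor gene CDT1 was 7.53-fold lower at 72 h, and the DNA polymerase gene POLD1 was at least 36.3-fold lower. RPA1, RRM2, EZH2 and SLBP, named after their values were seen, were the 4 of the 36 not called at 72 h. E2F1 itself, with a 72 h interval from -0.78 to 0.41 on 2028_s_at, passed no test at that time.

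**Figure D4:**
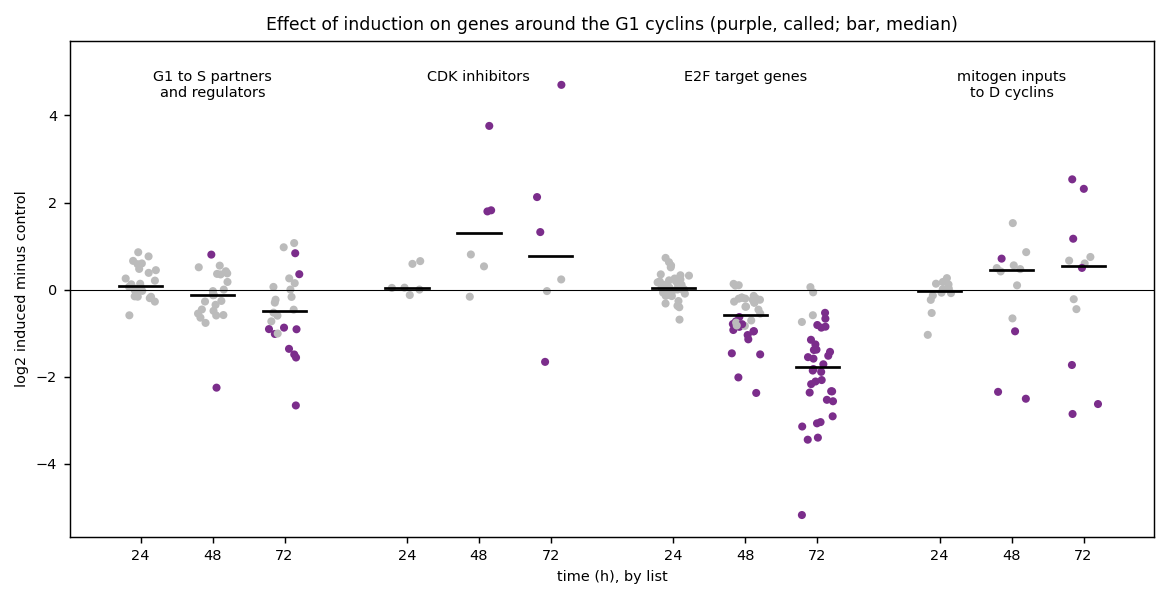
Induced minus control log2 difference at 24, 48 and 72 h for the genes of the 4 listed groups, with 1 point per gene, called genes in purple and the group median as a bar. The medians of E2F target genes move from 0.03 at 24 h to -0.59 at 48 h and -1.77 at 72 h, and that of the CDK inhibitors is 1.30 at 48 h and 0.78 at 72 h.

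Of 16 listed genes that carry growth signals to the D cyclins, 12 were tested, and 4 rose and 3 fell both in the average effect and at 72 h, beside 18.5% and 16.1% higher and 13.4% and 13.9% lower over all tested probe sets. MYC, a transcription factor that drives cell-cycle entry and binds the E-box, read 5620 to 11629 in the 8 controls. Induced cells read 10310 and 11611 at 12 h, 4079 and 7124 at 24 h, 1651 and 2428 at 48 h, and 1288 and 1642 at 72 h. MYC was 5.10-fold lower at 48 h (log2 -2.35, limma adjusted p = 0.000139) and 7.25-fold lower at 72 h (log2 -2.86, limma adjusted p = 1.14e-05). At 24 h its log2 difference was -1.04, which did not pass (limma adjusted p = 0.714), although both induced arrays were below both controls. CEBPA, a granulocytic transcription factor, and the kinase gene AKT1 also fell at 72 h, 6.19-fold and 3.32-fold, and STAT3 and FOS rose, 2.25-fold and 5.79-fold.

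The genes whose log2 pattern was most like that of CCND2 and CDK4, the 2 members with the smallest p in the average effect, are given as a description over the same 16 arrays. For CCND2 36650_at they were AKAP1 (r = 0.962), IQGAP2 (0.96) and TNFRSF1B (0.957), and for CDK4 they were MFNG (0.969), MTHFD1 (0.961) and SERPINB8 (0.961). Each of these 6 genes was lower in the average effect, by log2 values from -1.20 to -2.50, against -0.99 for CCND2 and -0.55 for CDK4. Their choice by likeness to 2 lowered members favoured this direction. The points share arrays, groups and times.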

How the data were processed

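Deposited values are array intensities on a linear scale for 12626 probe sets, which the authors had scaled array by array, per the labels. Which software summarised the probes was not given in the sources used here. The 67 control probe sets were left out. The 40th percentile of all values (135.61) served as a floor, to which lower values were raised before the log2 step. Testing needed at least 2 of 16 arrays above the overall median (292.74), which left 7824 probe sets. A fold change is that of fitted log2 means, and "at least" marks one whose lower side held arrays at the floor.

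Group means over the 16 arrays were estimated by limma 3.58.1 (R 4.3.3) with lmFit and a trended eBayes, leaving 8 residual degrees of freedom. All tests are two-sided, with Benjamini-Hochberg adjustment over 7824 probe sets at 0.05. The model was tested on simulated data. The small number of arrays, 2 in a group, limits the precision. Symbols came from the platform annotation, which can be old. A list gene was read on its probe set of highest mean, and up to 5 genes of a list were named, those with the smallest p for the average effect, with any of the CDK inhibitors and G1 to S partners besides. The 10 genes and the lists were chosen with earlier results of these data known, so their counts are descriptions. Promoter sequences are RefSeq's (GRCh38.p14). Alternatives changed the floor, log scale, normalization, filter, trend, controls, arrays and replicate block.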

Additional observations from a re-analysis of the deposited data

Results flagged for a closer look

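The effect of induction differed between 24, 48 and 72 h for 3 of the 19 probe sets in limma's F test, after adjustment over all tested probe sets. The difference between times had an adjusted p of 0.0142 for CDK4 (1942_s_at), whose log2 effect was 0.09 at 24 h, -0.81 at 48 h and -0.93 at 72 h. CDK2 (1792_g_at) had an adjusted p of 0.0142, with log2 effects of 0.27, -0.13 and -1.12 at the same times. RB1 (2044_s_at) had an adjusted p of 0.0274, with log2 effects of -0.04, 1.13 and 1.47.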

How the results depend on the processing

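None of the called differences changed sign under the alternatives run; some differences that were not called did, such as the average effect of CCND3 1795_g_at, which was 0.13 without induced replicate 1 at 24 h. Leaving out 1 array at a time gave 5 to 8 called probe sets of the 19 in the average effect (7 with all arrays), 3 to 6 at 48 h (4), 5 to 6 at 72 h (7), 0 at 24 h and 1 to 4 in the difference between times (3). For the difference between times, quantile normalization gave 6, median centring 5, no filter 1 and no mean-variance trend 0. With controls of 0 h used throughout, the average effect called 3 (1 higher, 2 lower), and CCND1 38418_at, CCND2 1983_at, RB1 2044_s_at and CDK2 1792_g_at lost their calls (adjusted p = 0.0524, 0.0831, 0.311 and 0.318). The average of 48 and 72 h without the 24 h groups, an alternative added after the data were seen, called 8 (2 higher, 6 lower). There CCNE2 was no longer called (adjusted p = 0.0849), and CDK6 41545_at (log2 1.53) and CDK2 1833_at (log2 -1.62) were. Comparisons of 12 h with 0 h and among controls stayed at 0 calls. The causes of these changes were not tested.

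CCND1 at 48 h, CCND2 36650_at at 48 h, CCND2 1983_at at 72 h, CDK4 at 48 and 72 h and RB1 2044_s_at at 72 h kept their calls in all 14 alternatives run on each. Fitting only the groups compared ended the 72 h calls of CCND2 36650_at (0.0707) and CDK2 1792_g_at (0.064) and the 48 h call of RB1 2044_s_at (0.0731). With the replicate number as a block, the replicate block gave 6 calls in place of 7 in the average effect, losing CDK2 1792_g_at (adjusted p = 0.0507). No regular pairing by replicate number was seen: over 28 pairs of groups, deviations of same-numbered arrays correlated between -0.152 and 0.25, and 7 exceeded 0.1. These correlations cannot tell whether same-numbered arrays shared a culture. Dim probe sets near the floor (CCNE1, CDK6 41545_at, CDK2 1833_at and most of RB1) limit what can be detected.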
